A study of Saccharomyces cerevisiae with 6 samples.

Results

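The cytosolic Hsp70 and Hsp110 chaperones of *Saccharomyces cerevisiae* were followed here as a family of 10 genes out of 7126 in the count table: the Hsp70 genes *SSA1*, *SSA2*, *SSA3*, *SSA4*, *SSB1* and *SSB2*, the Hsp110 genes *SSE1* and *SSE2*, and the exchange factor genes *FES1* and *SNL1*. Members were taken by gene name, and all 10 passed edgeR's filter on low counts, as did 6083 genes in total. The study compared a strain carrying *kcs1*-S537A,S646A, in which the serines at positions 537 and 646 of the inositol polyphosphate kinase Kcs1 are replaced by alanine, with a strain carrying wild-type *KCS1*. Each strain was measured in 3 colonies. Both are diploids of the filamentous background that the labels spell Siga1278b, both lack the 2 chromosomal copies of *KCS1*, and in both the gene is supplied from its own promoter on pRS416, a low-copy plasmid selected by *URA3*. Cells were pregrown without uracil and then kept in low-nitrogen medium, for 20 h according to the labels, before poly(A) RNA was sequenced. Because all colonies of an allele came from 1 strain, the allele cannot be told apart from any other difference between the strains. Fewer cells expressing a gene and less of its RNA per cell cannot be told apart either.

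Hsp70 proteins bind exposed stretches of unfolded protein and release them in a cycle driven by ATP. J proteins stimulate ATP hydrolysis, which closes the chaperone on its client, and nucleotide exchange factors remove the ADP and open it again. In yeast, Ssa proteins are the general cytosolic Hsp70s, whereas Ssb proteins sit on ribosomes and bind chains as they emerge. Heat-shock factor Hsf1, which drives *SSA1* and *SSA2*, is itself held back by free Ssa protein, and *SSB1* and *SSB2* are regulated along with ribosomal protein genes.

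The promoters of the family differed in exact matches to a binding motif of Hsf1. A heat shock element was searched for as GAANNTTCNNGAA or its complement TTCNNGAANNTTC, which covers both strands, in the 300 bases before each start codon of the R64 reference genome. It was present in 52 of 6020 promoters (0.864%). Among the 9 members whose promoters are described here, it was present in *SSA1*, *SSA2* and *FES1*, and the letters did not occur in the windows of the other 6. Because these are not all members, the matches are not set against the fold changes of the family. Only exact matches at this spacing were searched for. A promoter without a match may still hold another form of the element. The stress response element, AGGGG or CCCCT, occurred in 22.2% of all promoters and in those of *SSA1* (at 2 places), *SSA4*, *SSE2* and *SNL1*. The sequences are given below for these 3 promoters with the heat shock element and, for contrast, for the pair of *SSB* genes. Each runs from 300 to 101 bases before the start codon, 5′ to 3′ on the gene's own strand, with the heat shock element in capitals. They belong to the R64 reference strain, not to the strains of the study. The stretches are chrI:141532-141731 (minus strand) for *SSA1*, chrXII:97586-97785 (minus) for *SSA2*, chrII:444794-444993 (minus) for *FES1*, chrIV:43765-43964 (plus) for *SSB1* and chrXIV:251759-251958 (plus) for *SSB2*.
SSA1: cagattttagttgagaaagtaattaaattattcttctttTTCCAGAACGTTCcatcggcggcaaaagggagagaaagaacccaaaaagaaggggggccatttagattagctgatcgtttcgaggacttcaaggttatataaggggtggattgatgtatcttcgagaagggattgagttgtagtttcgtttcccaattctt
SSA2: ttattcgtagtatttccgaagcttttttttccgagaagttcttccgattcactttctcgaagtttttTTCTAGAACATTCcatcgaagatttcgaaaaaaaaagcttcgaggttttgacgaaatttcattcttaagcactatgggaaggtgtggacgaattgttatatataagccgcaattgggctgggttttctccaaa
FES1: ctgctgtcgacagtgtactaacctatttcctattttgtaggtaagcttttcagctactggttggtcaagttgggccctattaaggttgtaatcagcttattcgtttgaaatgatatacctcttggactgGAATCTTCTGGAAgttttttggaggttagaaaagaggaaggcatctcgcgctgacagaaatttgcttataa
SSB1: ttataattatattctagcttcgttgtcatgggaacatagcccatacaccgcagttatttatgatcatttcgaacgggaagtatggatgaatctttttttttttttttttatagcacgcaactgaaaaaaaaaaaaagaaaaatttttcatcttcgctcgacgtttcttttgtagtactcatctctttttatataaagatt
SSB2: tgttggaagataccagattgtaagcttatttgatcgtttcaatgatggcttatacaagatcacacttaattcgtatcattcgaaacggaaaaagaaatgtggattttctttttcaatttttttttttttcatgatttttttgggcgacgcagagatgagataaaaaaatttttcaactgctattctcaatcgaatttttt
The element began 261 bases before the start codon in *SSA1*, 233 bases before it in *SSA2* and 171 bases before it in *FES1*. A match is a description of the letters, and binding of Hsf1 was not measured.

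Between 20529351 and 22701020 fragments were counted per mutant sample and between 17950923 and 20822332 per wild-type sample. The mutant samples differed more among themselves than the wild-type samples did. Over genes with more than 100 CPM (counts scaled to the TMM-adjusted library size), the SD of the log2 ratio between 2 samples was 0.28 to 0.43 for pairs of mutant samples and 0.12 to 0.15 for pairs of wild-type samples. Mutant replicate 2 stood apart in *KCS1* itself, with 272.2, 796.7 and 347.4 CPM in mutant replicates 1 to 3, against 366.7, 309.1 and 340.6 CPM in wild type. Counts per gene do not show whether a transcript carries the point mutations. The genes of chromosome XIV were low in all 3 mutant samples, with a median log2 difference from wild type between -0.55 and -0.52, and those of chromosome VI were low in mutant replicate 1 only (-0.96). *SSB2* is the only member on either chromosome. Haploid-specific genes, which diploids repress, summed to 198.4 to 208.5 CPM in mutant samples and 164.8 to 184.3 CPM in wild-type samples over 13 genes, none of them at 0. Of these, *STE4* was higher in the mutant (log2 fold change 0.51, adjusted *p* = 0.028 from edgeR), *MFA1* had 0.64 (adjusted *p* = 0.16) and *STE2* -0.094. *STE2* lies on chromosome VI and had 10.34, 25.05 and 25.04 CPM in mutant replicates 1 to 3. Its wild-type values were 21.95, 21.55 and 21.21 CPM, so only mutant replicate 1 was below them. What part these differences had in the values below was not tested. Values without a sample or a chromosome show only how the fit changed when it was left out. Leaving out a chromosome drops its genes, while the same samples still supply the other genes.

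*SSA1*, *SSA2* and *FES1* were higher in *kcs1*-S537A,S646A, and no member was lower at an adjusted *p*-value under 0.05. That is 3 of 10 members, beside 0.986% of the 6083 genes tested that were called higher, 4.67% called lower and 5.66% called in either direction. The family was chosen with this comparison already known, so the fold changes describe its members and nothing is read from the share. Most of the edgeR calls over all genes were lost when chromosomes XIV and VI were left out of the fit or given an offset. The edgeR shares of genes called at an adjusted *p*-value, here and below, therefore depend on how those chromosomes are treated. Of the 10 log2 fold changes, 7 were above 0, with a median of 0.29 beside 0.015 over all genes tested. At an unadjusted *p*-value under 0.05, 6 members were higher, beside 8.24% of all genes tested, and 1 was lower, beside 11.9%, and DESeq2 called 3 higher and 1 lower, beside 2.62% and 6.92% of the 6069 genes to which it gave an adjusted *p*-value. All 3 mutant samples lay above all 3 wild-type samples in 5 members, beside 11.8% of all genes tested, and below them in 1, beside 14.8%. Together the 10 genes took between 1.03% and 1.11% of the counts in mutant samples and between 1.01% and 1.04% in wild-type samples.

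**Figure D1:**
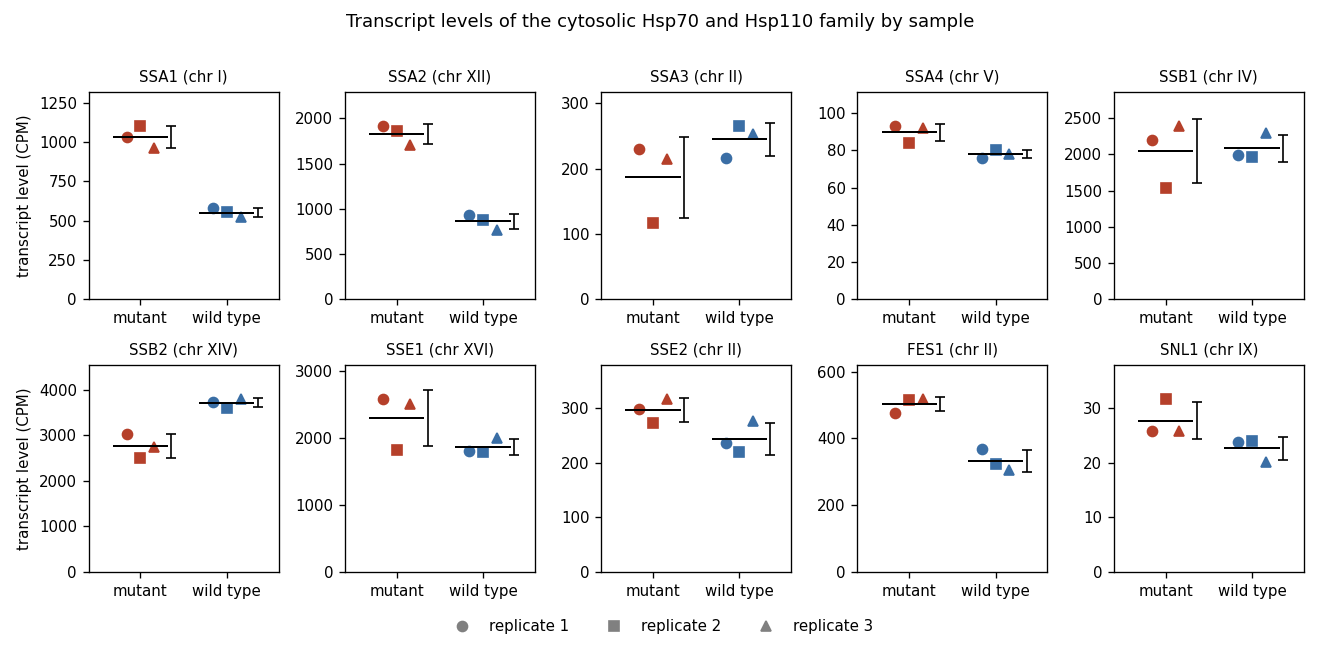
Transcript level in CPM (linear axes from 0) of each member in the 3 mutant samples (red, left) and the 3 wild-type samples (blue, right), with the mean as a line, the SD as a bar and a marker shape for each replicate. *SSA1*, *SSA2* and *FES1* are clear of wild type in all 3 mutant samples, and mutant replicate 2 is the lowest mutant value in *SSA3*, *SSA4*, *SSB1*, *SSB2*, *SSE1* and *SSE2*.

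*SSA2* encodes the most abundant of the general Hsp70s and had the largest fold change of the family. It is YLL024C, on the minus strand of chromosome XII from 95566 to 97485. It had 1910.5, 1865 and 1706 CPM in mutant replicates 1 to 3, against 935.1, 877.6 and 770.8 CPM in wild-type replicates 1 to 3. The lowest mutant sample was thus far above the highest wild-type sample. The means were 1827 ± 107 CPM in the mutant and 861.2 ± 83.4 CPM in wild type (SD, n = 3 each). The fitted log2 difference between the strains was 1.09 (standard error 0.12, 95% interval 0.81 to 1.36, adjusted *p* = 0.0041 from edgeR), which ranked 20 from the top of the 6083 genes. None of the other 525 genes tested on chromosome XII had a higher one.

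*SSA1*, the closest copy of *SSA2*, showed nearly the same pattern. It is YAL005C, on the minus strand of chromosome I from 139503 to 141431. Its level was 1034, 1099 and 962.4 CPM in mutant replicates 1 to 3 and 577.9, 552.1 and 522.7 CPM in wild type, again without overlap. On the log2 scale it was 0.91 higher (standard error 0.10, 95% interval 0.67 to 1.14, adjusted *p* = 0.0041 from edgeR). In both genes, each of the 3 mutant samples was higher than the wild-type mean by a similar amount: log2 differences were 0.91, 1.00 and 0.81 for *SSA1* and 1.15, 1.12 and 0.99 for *SSA2*. Without chromosomes XIV and VI in the fit, the log2 fold changes were 0.89 and 1.07 (adjusted *p* = 0.023 for each, edgeR).

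The coding sequences of *SSA1* and *SSA2* are 96.4% identical in R64, and only 64.4% of the 150-base windows of *SSA1* and 64.3% of those of *SSA2* occur once in the genome. With 300-base windows, closer to the length of a sequenced fragment, the shares were 90.1% and 90.0%. How the counting treated reads that match both genes is not given in the sources used here, so the split between the copies is less certain than their sum. Fitted as 1 gene, the pair had a log2 fold change of 1.02 (adjusted *p* = 0.0042 from edgeR). *SSA2* made up 64.9%, 62.9% and 63.9% of the pair's counts in mutant replicates 1 to 3, against 61.8%, 61.4% and 59.6% in wild type, and exact 95% intervals, which cover counting error only, reached at most 0.59 percentage points from each share. The share of *SSA2* was thus above wild type in all 3 mutant samples.

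*SSA3* and *SSA4* encode Hsp70s that are scarce in unstressed cells and strongly induced by heat or by the end of growth, and neither passed the test here. *SSA3* (YBL075C, chromosome II from 84499 to 86448) had 230.7, 116.0 and 214.3 CPM in mutant replicates 1 to 3, against 216.6, 264.5 and 253.7 CPM in wild type. Mutant replicate 2 was far below the rest, and mutant replicates 1 and 3 lay at the low end of the wild-type range or just under it. EdgeR estimated a log2 fold change of -0.39 with a standard error of 0.23 (adjusted *p* = 0.41), and -0.14 without mutant replicate 2. *SSA4* (YER103W, chromosome V from 364589 to 366517) had 92.8, 84.1 and 91.8 CPM in the mutant and 76.0, 80.1 and 77.9 CPM in wild type. The samples did not overlap, but the distance was small, at 0.20 on the log2 scale (standard error 0.073, 95% interval 0.030 to 0.37, adjusted *p* = 0.18 from edgeR).

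Per length, *SSA4* was the lowest member in both strains. The make-up of the SSA transcripts differed between the strains. *SSA1* and *SSA2* together made up 90.2%, 93.7% and 89.8% of the summed SSA FPKM (fragments scaled to gene length and depth) in mutant replicates 1 to 3, against 83.9%, 80.8% and 79.8% in wild type. *SSA3* made up 6.97%, 3.62% and 7.11% in the mutant and 11.9%, 14.7% and 15.4% in wild type. These shares did not overlap between the strains.

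Neither gene for the ribosome-bound Hsp70s passed the test. *SSB1* (YDL229W, chromosome IV from 44065 to 45906) had 2202, 1540 and 2384 CPM in mutant replicates 1 to 3 and 1990, 1959 and 2295 CPM in wild type. Mutant replicates 1 and 3 were within or just above the wild-type range and replicate 2 was below it. EdgeR estimated a log2 fold change of -0.028 (standard error 0.18, 95% interval -0.44 to 0.38, adjusted *p* = 0.95), and its sign depended on single samples: it was 0.14 without mutant replicate 2 and 0.048 without wild-type replicate 3. The interval covers changes of either direction.

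*SSB2* (YNL209W, plus strand of chromosome XIV from 252059 to 253900) was low in all 3 mutant samples, with 3019, 2502 and 2751 CPM, against 3736, 3600 and 3787 CPM in wild type. The samples did not overlap, and the log2 fold change was -0.43 (standard error 0.13, 95% interval -0.72 to -0.13), but the adjusted *p* was 0.11 (edgeR). It was 0.020 with library totals in place of TMM, 0.022 without mutant replicate 1, and 0.00081 with DESeq2. The other 406 genes tested on chromosome XIV had a median log2 fold change of -0.53, so that *SSB2* was 0.098 above its chromosome, and 30.3% of those genes were higher still. With an offset for the shifted chromosomes, its log2 fold change was 0.11 (adjusted *p* = 0.71).

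**Figure D2:**
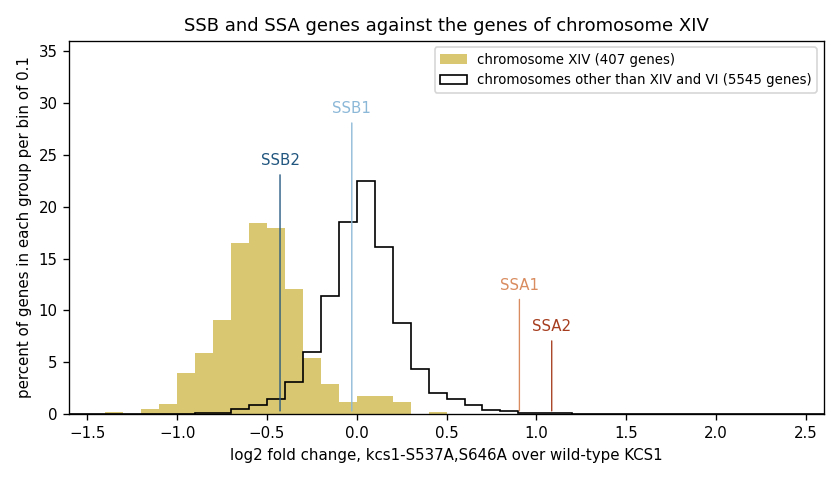
Percent of genes in each bin of log2 fold change (mutant over wild type) for chromosome XIV (filled) and for chromosomes other than XIV and VI (outline), with the values of *SSB2*, *SSB1*, *SSA1* and *SSA2* marked by lines whose heights carry no meaning. *SSB2*, at -0.43, lies inside the distribution of its chromosome, whereas *SSA1* and *SSA2*, at 0.91 and 1.09, lie at the upper end of theirs.

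*SSB1* and *SSB2* are 97.4% identical in coding sequence, and 74.5% of the 150-base windows of each occur once in the genome. With 300-base windows, the share was 82.9% for each. The counting of reads that match both genes is not given here either, so the split between these copies is also less certain than their sum. *SSB2* made up 57.8%, 61.9% and 53.6% of the pair's counts in mutant replicates 1 to 3, against 65.2%, 64.8% and 62.3% in wild type. All 3 mutant shares were below all 3 wild-type shares, with exact 95% intervals that reached at most 0.32 percentage points from each share. As a difference of log2 fold changes, *SSB2* was 0.40 below *SSB1*. Set against the median of its chromosome it was 0.13 above *SSB1*.

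Summed over genes, the SSA transcripts had 3136 ± 149 CPM in the mutant and 1735 ± 96.6 CPM in wild type, and the SSB transcripts had 4799 ± 657 CPM in the mutant and 5789 ± 267 CPM in wild type (SD, n = 3 each). The log2 ratio of summed SSA to summed SSB CPM, used only to compare the strains, was -0.68, -0.35 and -0.79 in mutant replicates 1 to 3, against -1.67, -1.65 and -1.90 in wild type. Every mutant sample therefore held more SSA relative to SSB than any wild-type sample, with a mean difference of 1.13 on the log2 scale. Per length, SSB exceeded SSA by a factor of 1.67, 1.33 and 1.80 in the mutant samples, against 3.32, 3.28 and 3.92 in wild type. The groups of genes were set with these values known, and the difference was not tested. With *SSB1* alone in place of the SSB sum, which leaves out the gene on chromosome XIV, the log2 ratio was 0.57, 1.04 and 0.32 in the mutant and -0.14, -0.14 and -0.50 in wild type, a difference of 0.90. Reads from *SSB2* may still be among the *SSB1* counts.

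**Figure D3:**
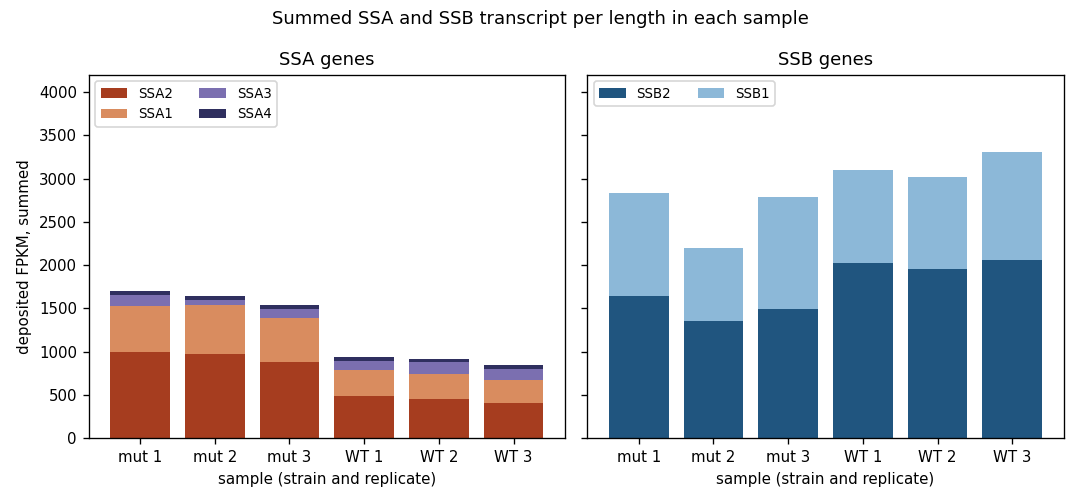
Deposited FPKM summed over the SSA genes (left) and the SSB genes (right) in each sample, with the mutant samples left of the wild-type samples and each gene as a stacked colour. The SSA stack is 1542 to 1698 FPKM in mutant samples and 844.2 to 933.7 FPKM in wild-type samples, and the SSB stack is 2195 to 2836 FPKM in mutant samples and 3017 to 3307 FPKM in wild-type samples.

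Among the exchange factors, *FES1* rose and the Hsp110 genes did not pass the test. Fes1 is an armadillo-repeat protein that opens cytosolic Hsp70. Its gene (YBR101C, chromosome II from 443821 to 444693) had 477.4, 514.0 and 517.1 CPM in mutant replicates 1 to 3, against 368.2, 322.7 and 304.2 CPM in wild type. The samples were well separated, and the fitted difference was 0.60 on the log2 scale (standard error 0.10, 95% interval 0.36 to 0.84, adjusted *p* = 0.015 from edgeR). The call was lost without wild-type replicate 2 (adjusted *p* = 0.11) or wild-type replicate 3 (0.093), without chromosomes XIV and VI (0.078) and with an offset for them (0.068), while the log2 fold change stayed between 0.54 and 0.68 under all alternatives.

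*SSE1* (YPL106C, chromosome XVI from 350194 to 352275) encodes the main Hsp110, an Hsp70 relative that exchanges nucleotide on Ssa and Ssb. It had 2577, 1818 and 2508 CPM in mutant replicates 1 to 3 and 1806, 1796 and 1998 CPM in wild type. Mutant replicates 1 and 3 were above wild type and replicate 2 was level with it. The fitted difference was 0.30 on the log2 scale with a standard error of 0.16 (adjusted *p* = 0.34, edgeR), and 0.44 without mutant replicate 2 (adjusted *p* = 0.047). *SSE2* (YBR169C, chromosome II from 573915 to 575996), the minor Hsp110 gene, had 299.1, 272.2 and 316.0 CPM in the mutant and 236.2, 219.2 and 275.9 CPM in wild type. The highest wild-type sample overlapped the lowest mutant sample, and the fitted log2 difference was 0.28 with a standard error of 0.11 (adjusted *p* = 0.22, edgeR). *SSE2* took 10.4% to 13.0% of the counts of the pair in mutant samples and 10.9% to 12.1% in wild-type samples.

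*SNL1* (YIL016W, chromosome IX from 321454 to 321933) encodes a membrane-anchored BAG-domain exchange factor. It had 25.7, 31.5 and 25.7 CPM in mutant replicates 1 to 3, against 23.7, 23.9 and 20.2 CPM in wild type. The samples did not overlap, but mutant replicates 1 and 3 were close to wild type, and the log2 fold change of 0.29 (standard error 0.12) had an adjusted *p* of 0.23 (edgeR). In summed FPKM, SSA stood to the exchange factors as 0.87 ± 0.11 in the mutant and 0.63 ± 0.050 in wild type (SD, n = 3 each).

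**Figure D4:**
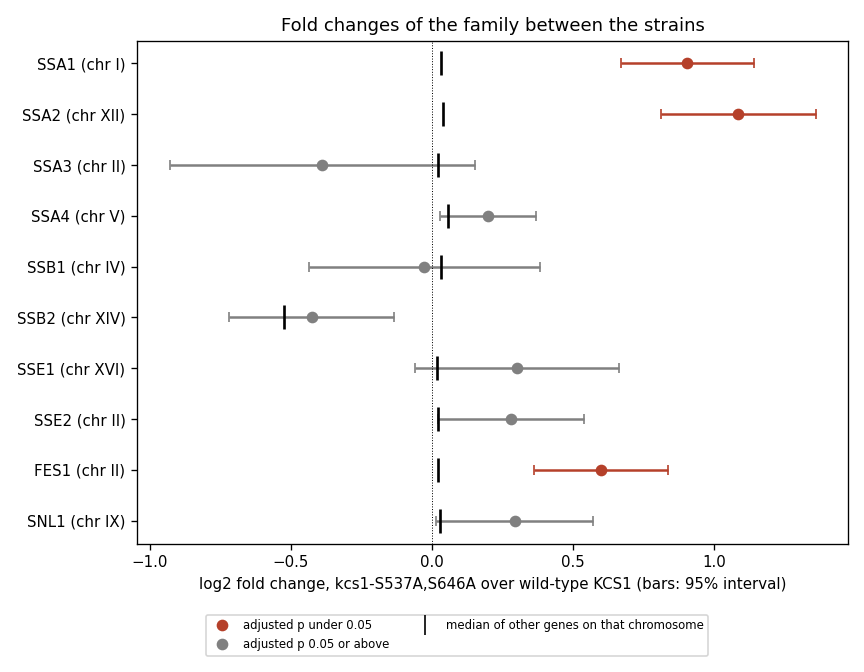
Log2 fold change (mutant over wild type) of each member with its 95% interval, in red where the adjusted *p*-value was under 0.05, and with a tick at the median of the other genes on its chromosome. *SSA2* is highest at 1.09, and *SSB2*, at -0.43, is close to the tick of chromosome XIV at -0.53.

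Outside the family, 46 genes with a heat shock element in the promoter window were tested. Of these, *HSP78* and *STI1* were called higher (4.35%) and none lower by edgeR, with a median log2 fold change of 0.14 and 33 of the 46 above 0. Of the 5693 genes tested with no such match, 52 were called higher (0.913%) and the median was 0.012. Neither *HSP78* nor *STI1* was called without chromosomes XIV and VI. With the offset for them, neither was called either (adjusted *p* = 0.068 and 0.080, edgeR).

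Per length, the levels of the members kept a wide range. In the mutant, *SSB2* was highest with 1496 ± 141 FPKM, followed by *SSB1* (1108 ± 240 FPKM) and *SSE1* (1105 ± 201 FPKM), and then *SSA2* (951.4 ± 57.1 FPKM, SD, n = 3 each). In wild type, the same 4 genes were in the same order, with 2011 ± 53.4 FPKM for *SSB2*, 1129 ± 103 FPKM for *SSB1*, 896.1 ± 56.5 FPKM for *SSE1* and 448.1 ± 42.3 FPKM for *SSA2*. In the mutant, the samples of *SSB1* overlapped those of *SSE1*, and those of *SSE1* overlapped *SSA2*, whereas these 4 genes did not overlap in wild type. *FES1* (575.8 FPKM) overlapped *SSA1* (534.8 FPKM) in the mutant, and it overlapped *SSA2* in wild type. *SSA3* overlapped *SNL1* in the mutant and *SSE2* in wild type. The lowest were *SNL1* and *SSA4*, with 57.6 and 46.4 FPKM in the mutant and 47.0 and 40.4 FPKM in wild type.

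Other known targets of Hsf1 were compared from a list of 21 genes, chosen with earlier results of these data known. Of these, 5 were called higher by edgeR, beside 0.986% of all genes tested, and 0 lower, beside 4.67% (1 at an unadjusted *p*-value under 0.05 and 0 by DESeq2). Both shares of all genes were far smaller without chromosomes XIV and VI or with the offset for them. Because of how the list was chosen, its values are a description and nothing is read from the shares. The log2 fold change was above 0 in 18 of the 21, beside 3237 of all 6083 genes, and the median was 0.30, beside 0.015. *BTN2*, a sorting factor for misfolded proteins, rose most (1.17, standard error 0.14), followed by its relative *CUR1* (0.75), the mitochondrial disaggregase *HSP78* (0.55), the Hsp90 gene *HSP82* (0.52) and *STI1* (0.50), whose product joins Hsp70 to Hsp90. *BTN2* had 387.7, 425.7 and 403.1 CPM in mutant replicates 1 to 3 and 216.1, 178.6 and 145.1 CPM in wild type. The lowest value was that of *YDJ1* (-0.30, adjusted *p* = 0.24), a J protein gene on chromosome XIV. Among the 16 genes outside chromosomes XIV and VI, 15 were above 0 and the median was 0.36. Without these chromosomes in the fit, 1 of the list was called, *BTN2* (adjusted *p* = 0.026, edgeR), and the calls numbered between 1 and 10 as each sample was left out in turn. The element was found in 7 of the 21 promoters. *HSF1* itself had 163.0, 149.0 and 179.5 CPM in the mutant and 140.3, 147.4 and 157.2 CPM in wild type (log2 fold change 0.14, adjusted *p* = 0.44, edgeR).

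**Figure D5:**
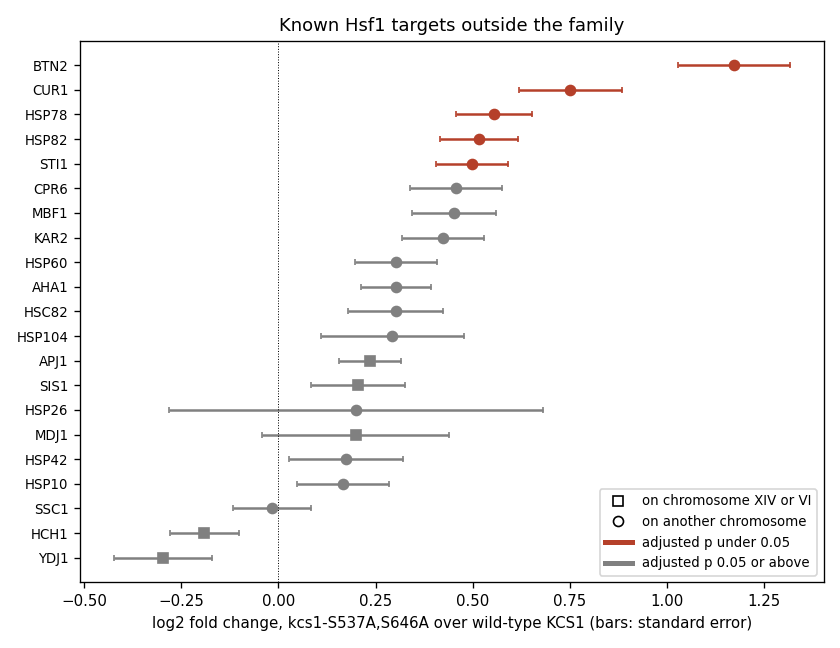
Log2 fold change (mutant over wild type) with its standard error for the 21 listed Hsf1 targets outside the family, in red where the adjusted *p*-value was under 0.05 and as squares for genes on chromosomes XIV or VI. *BTN2* is at the top with 1.17 and *YDJ1*, on chromosome XIV, at the bottom with -0.30.

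No gene of the lists of Hsp70 partners and of stress regulators was called by edgeR. The 5.66% of all genes tested that were called amounts to less than 1 gene in each of these lists, so nothing is read from the absence of calls. None of the 11 cytosolic J protein genes was called by edgeR, with a median of 0.0032, *APJ1* highest (0.24, adjusted *p* = 0.15) and *JJJ1* lowest (-0.51, adjusted *p* = 0.092). Both are among the 4 of the 11 that lie on chromosome XIV. With the offset for chromosomes XIV and VI, *APJ1* was called higher (0.77, adjusted *p* = 0.016, edgeR) and *JJJ1* had 0.022, whereas with library totals *JJJ1* was called lower (-0.58, adjusted *p* = 0.034, edgeR). At an unadjusted *p*-value under 0.05, 1 was higher and 2 were lower, and DESeq2 called 1 lower. None of the 5 genes for other chaperones at the ribosome was called either (0 at an unadjusted *p*-value under 0.05 and 0 by DESeq2), with a median of 0.059, between *SSZ1* (-0.030) and *BTT1* (0.18). The Hsp70 systems of the mitochondria and endoplasmic reticulum, 7 genes, had no call (1 higher at an unadjusted *p*-value under 0.05 and 1 by DESeq2), with *KAR2* of the endoplasmic reticulum at 0.42 (adjusted *p* = 0.063) and *SSQ1* lowest at -0.17. Of the 6 genes for stress regulators none was called, between *MSN4* (-0.44) and *GCN4* (0.36), and 2 were higher at an unadjusted *p*-value.

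Genes of the general stress response, which depend on Msn2 and Msn4, were lower where they were called. Of 15 listed genes, edgeR called 0 higher (0 at an unadjusted *p*-value under 0.05 and 0 by DESeq2) and 2 lower (3 at an unadjusted *p*-value and 3 by DESeq2), beside 4.67% of all genes tested, with a median of -0.22 beside 0.015. These were *HSP12*, a membrane-protecting protein gene on chromosome VI (-0.84, adjusted *p* = 0.0092), and the glycogen phosphorylase gene *GPH1* (-0.51, adjusted *p* = 0.021), and *PGM2* was highest (0.22, adjusted *p* = 0.50). *HSP12* had 281.7, 222.4 and 269.7 CPM in mutant replicates 1 to 3, against 406.6, 496.7 and 477.7 CPM in wild type. Chromosome VI was shifted in mutant replicate 1 only. With the offset for chromosomes XIV and VI neither gene was called, with -0.43 for *HSP12* (adjusted *p* = 0.52) and -0.51 for *GPH1* (adjusted *p* = 0.079, edgeR). A fit lacking chromosomes XIV and VI, and so *HSP12*, called none of the list. Relative to wild type, the median of the 15 genes was 0.0097, -0.30 and -0.38 in mutant replicates 1 to 3. The list as a whole was thus not lower in mutant replicate 1. Wild-type replicates 1 to 3 had -0.10, 0.14 and -0.053. The 137 ribosomal protein genes, with which the *SSB* genes are known to be regulated, had a median of 0.23, with 0.50, 0.068 and 0.070 in mutant replicates 1 to 3 relative to wild type, so that mutant replicate 1 carried most of it. None was called higher by edgeR, beside 0.986% of all genes tested. At an unadjusted *p*-value under 0.05, 17 were higher, beside 8.24%, and DESeq2 called 1 higher, beside 2.62%. EdgeR called 1 lower, beside 4.67%, *RPL18B* on chromosome XIV (-0.78), and *RPL39* was highest (0.56, adjusted *p* = 0.21). With the offset for chromosomes XIV and VI, *RPL18B* was not called (-0.25, adjusted *p* = 0.24, edgeR). *RPL9B*, also on chromosome XIV, was then called higher (0.72, adjusted *p* = 0.0499, edgeR).

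Across the 6 samples, the closest profile within the family was that between *SSA1* and *SSA2*, whose log2 CPM, each centred on its own mean, differed by a root mean square of 0.11. Of 5350 genes outside the family with a mean log2 CPM of at least 3, the nearest to *SSA2* were *BTN2* (0.12), *IMD2* (0.12) and *PHO13* (0.14). The nearest to *SSA4* were *MET1* (0.026), *HST1* (0.028) and *ISM1* (0.028), and those to *SSB1* were *GAL11* (0.048), YDR341C (0.053) and *RLI1* (0.054). Each of these likenesses rests on 6 libraries from 2 strains and is a description.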

How the data were processed

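RNA was measured in 6 samples, 3 colonies of each strain. For the authors, a sequencing company filtered the reads for adapters and quality, aligned them with HISAT2 2.0.5 and obtained counts from featureCounts 1.5.0-p3. The build, the strand setting and the treatment of reads with several matches are not given in the sources used here. The deposited counts are not normalized. The authors also deposited FPKM values, scaled by gene length and by a depth proportional to the DESeq2 size factor, as checked on the values. The authors' mean FPKM per strain were not used. All 10 members have the same coordinates in the files and in R64.

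The strains were compared on the counts by edgeR 4.0.16 in R 4.3.3 (filterByExpr with a minimum of 10 counts, TMM, glmQLFit and glmQLFTest, 2-sided, Benjamini-Hochberg over 6083 genes, threshold 0.05). CPM values are TMM-scaled, and the standard error is the log2 fold change over the root of the test statistic. Levels were compared between genes in FPKM, and shares of counts within a pair and ratios of summed CPM serve only to compare the strains. Sequences were read from the RefSeq R64 genome with Python 3.11.15 and Biopython 1.88, and identity was computed on coding sequences because no protein table was used here. The promoter of *SSE1* is not reported here. The fit was also run on simulated data, drawn gene by gene with the same spread in both strains and no shifted chromosome. That run cannot show how the shifts of chromosomes XIV and VI act on the calls.

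The members and the gene lists were chosen with earlier results of these data known. Named were all members, *KCS1* and *HSF1*, the called genes and both extremes of each list, and the 3 genes nearest in profile to *SSA2*, *SSA4* and *SSB1*. Alternatives were DESeq2 1.42.0 (its size factors or its test), library totals, 2 other filters, limma-voom on counts and limma-trend on log2(FPKM + 1) (limma 3.58.1), a replicate block, each sample left out, unadjusted *p*-values, paralogs summed, chromosomes XIV and VI left out or given an offset, *SSB2* set against the median of its chromosome, and, chosen after seeing the data, *SSB1* alone for the SSB sum. The replicates are colonies of 1 strain each, so *p*-values measure the spread between colonies.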

Additional observations from a re-analysis of the deposited data

How the results depend on the processing

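*SSA1* and *SSA2* stayed called in all 17 alternatives, with log2 fold changes from 0.84 to 0.95 and from 1.01 to 1.15 and a highest adjusted *p* of 0.043 and 0.039. *FES1* had 0.58 (adjusted *p* = 0.078) without chromosomes XIV and VI and 0.60 (0.068) with an offset for them, and 0.54 to 0.68 with each sample left out. *SSB2* had -0.50 (adjusted *p* = 0.020) with library totals, -0.43 (0.00081) with DESeq2, 0.11 with the offset, and -0.50 to -0.37 with each sample left out. *SSB1* ranged from -0.15 to 0.14 and *SSE1* from 0.21 to 0.44 with each sample left out. Summed and fitted as 1 gene, *SSA3* and *SSA4* had -0.22, and *SSA3* has more of the counts. The difference of *SSB2* from *SSB1* was 0.13 relative to chromosome XIV. The difference in the log2 ratio of SSA to SSB was 0.90 with *SSB1* alone. Without adjustment, *SSA4* (0.20), *SSB2* (-0.43), *SSE2* (0.28) and *SNL1* (0.29) also passed, which made 6 members higher and 1 lower.

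The number of genes called depended strongly on the setting. It was 344 (60 higher, 284 lower) in edgeR, 579 (159 higher) with DESeq2, 36 higher with library totals, 1224 (501 higher, 723 lower) unadjusted, 16 (9 higher, 7 lower) without chromosomes XIV and VI, and 19 (13 higher, 6 lower) with the offset. With each sample left out it was 84 to 481, with 8 to 128 higher and 76 to 353 lower. Members called higher numbered 2 to 4 and lower 0 to 1 with each sample left out, and 1 was lower with library totals or DESeq2. Of the Hsf1 targets, 9 were higher with DESeq2, 12 higher and 1 lower unadjusted, 1 higher without chromosomes XIV and VI, 2 with the offset, and 1 to 10 with each sample left out. The 2 with the offset were *BTN2* and *APJ1*, which lies on chromosome XIV and was not called in the main fit. Of the Msn2 and Msn4 genes, 0 were lower without chromosomes XIV and VI or with the offset, and 0 to 3 with each sample left out. The cause of these differences was not tested, except that fewer samples or genes were fitted where some were left out.

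With the replicate number as a block, 35 genes were higher, 3 Hsf1 targets higher and 1 Msn2 and Msn4 gene lower, and no member's call changed. Deviations of samples with the same number correlated at -0.13, 0.024 and 0.34 across genes. Those of samples with different numbers correlated at -0.26 to 0.26. The numbers name separate colonies, and with 3 per strain these correlations cannot exclude a pairing.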
